A study of Mus musculus with 12 samples.

Results

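Simple epithelia such as the pancreatic duct build an internal scaffold from the keratins Krt8, Krt18, Krt19 and Krt7, seal the space between cells with claudins such as Cldn4 and Cldn7, and carry the adhesion protein Epcam and the mucin Muc1 on their surface. The transcription factor Grhl2 and the splicing factor Esrp1 maintain that programme. These 10 mouse genes were chosen by name, with earlier results of these data known. They were followed in 2 mouse lines, the pancreatic adenocarcinoma line KPC4 and the pancreatic stellate line PSC4, and 9 of them were listed among 15309 genes in the KPC4 count table. Members made up 7 of the 16386 genes listed for PSC4: Epcam and Cldn4 were listed in KPC4 only, and Esrp1 was listed in neither table.

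Bulk RNA was sequenced in 4 groups of 3 biological replicates, in which the labels give each line no genotype or strain. PSC4 cells spent 24 h in supernatant of KPC4 cells that had been given vehicle (Control-SU) or 10 µM gemcitabine, a nucleoside analogue used as chemotherapy (Gem-SU), for 6 h, then washed and kept in starvation medium for 14 h. KPC4 cells that had not themselves been given the drug spent 24 h in supernatant of PSC4 cells that had been left for 6 h in either of those tumour supernatants, were washed, and conditioned fresh starvation medium for 18 h (Control-PSC-SU and Gem-PSC-SU). The stroma and the tumour cells of both experiments are thus single lines in monoculture, and each line stands for its cell type through that line alone. The libraries held 29559414 to 38138356 counts in PSC4 and 26354328 to 34744150 in KPC4, and each replicate differed from the others of its group by more than counting noise.

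In textbook accounts keratins pair as obligate heteropolymers of a type I chain (Krt18, Krt19) and a type II chain (Krt7, Krt8). Epcam binds Cldn7 at the cell membrane. Zeb and Snail proteins, which are mesenchymal repressors, bind E-boxes in epithelial promoters, while grainyhead-like factors such as Grhl2 oppose them.

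The lines matched their labels by markers. In KPC4, 13 of 14 ductal epithelial markers were above the floor of 3 counts (Esrp1 was not listed), and their summed level was 6119 to 7567 CPM (counts per 1000000 counts of the library, scaled within each line) in the 3 Control-PSC-SU libraries. The same list summed to 35.6 to 40.8 CPM in PSC4 with Control-SU and to 59.8 to 67.2 CPM with Gem-SU, and Cdh1 and Epcam were not listed there. Of 14 stellate and fibroblast markers 13 were above the floor in PSC4, at a summed 6345 to 7570 CPM with Control-SU and 2070 to 3133 CPM with Gem-SU. In KPC4 that list summed to 19.2 to 34.6 CPM over both groups, and Pdgfrb, Dcn and Postn were not listed. No marker list other than the ductal and stellate ones summed to more than 15.8 CPM in a library, and no endocrine marker was listed.

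The promoters of the members are shown because those listed in both lines were all higher in control KPC4 than in control PSC4. Another reason is that the genes of the E-box-binding repressors were measured beside them. RefSeq promoter windows (build GRCm38.p6) matched 7 of the 10 members, with 2 windows for Cldn7, while Krt19, Grhl2 and Esrp1 had no entry. The 250 bases before the start are printed 5′ to 3′ on the coding strand for windows that touch no annotated exon, with matches to the E-box (CACCTG, or CAGGTG on the other strand) and to the AP-1 motif (TGANTCA, the same on either strand) in capitals. The windows lie at chr17:87635729-87635978 (plus strand) for Epcam, chr3:89228806-89229055 (plus) for Muc1, chr5:134946935-134947184 (minus) for Cldn4 and chr11:69964529-69964778 (plus) for the upstream start of Cldn7.
Epcam: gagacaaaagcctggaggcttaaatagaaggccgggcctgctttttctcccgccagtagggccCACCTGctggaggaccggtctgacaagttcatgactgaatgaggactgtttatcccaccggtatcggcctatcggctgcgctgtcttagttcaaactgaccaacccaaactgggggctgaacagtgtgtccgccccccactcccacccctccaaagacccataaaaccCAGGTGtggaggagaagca
Muc1: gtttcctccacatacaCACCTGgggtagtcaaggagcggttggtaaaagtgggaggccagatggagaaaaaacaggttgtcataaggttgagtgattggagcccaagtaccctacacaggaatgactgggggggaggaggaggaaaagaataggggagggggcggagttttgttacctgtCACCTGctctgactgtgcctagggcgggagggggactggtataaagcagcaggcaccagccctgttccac
Cldn4: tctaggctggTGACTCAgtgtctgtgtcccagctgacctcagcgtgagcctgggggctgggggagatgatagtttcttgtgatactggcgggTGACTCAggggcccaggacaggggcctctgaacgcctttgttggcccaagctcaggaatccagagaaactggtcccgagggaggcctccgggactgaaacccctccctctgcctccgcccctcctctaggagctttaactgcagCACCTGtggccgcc
Cldn7: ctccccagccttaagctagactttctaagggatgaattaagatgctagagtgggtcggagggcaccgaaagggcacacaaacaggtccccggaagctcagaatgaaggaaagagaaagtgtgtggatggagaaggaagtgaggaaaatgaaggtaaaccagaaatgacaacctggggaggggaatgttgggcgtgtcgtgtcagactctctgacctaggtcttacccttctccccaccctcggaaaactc

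Each of the 7 genes held at least 1 E-box in the 250 bases before an annotated start, in 7 of 8 windows, against 17.2% of 32851 RefSeq promoters of the same length. Epcam and Muc1 each had 2, as did the downstream start of Cldn7, against 2.06% of promoters with 2 or more. The upstream Cldn7 window printed above had none. The windows not printed overlap annotated exons, by 205 bases for Krt7, 140 for Krt8, 36 for Krt18 and 221 for the downstream start of Cldn7. In Epcam the nearer copy began 19 bases before the start, and in Cldn4 the single copy began 14 bases before it. Cldn4 alone carried the AP-1 letters, at 2 places (6.75% of promoters have the motif), and no window held the grainyhead letters AACCNGGTT, found in 0.240% of promoters. None of these motifs overlapped another. These are letter matches in a window and not measured binding.

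The keratins were among the most abundant transcripts of KPC4. Krt8, the type II chain of simple epithelium, was counted at 2616, 2800 and 3086 CPM in the 3 Control-PSC-SU libraries, a level above 99.9% of the genes in the table. Krt18, its type I partner, stood at 1526, 1140 and 1506 CPM. Krt19, the type I chain typical of ducts, stood at 2044, 1406 and 1995 CPM. The second library was the lowest of the 3 for Krt18 and Krt19 but not for Krt8. Krt7, the second type II chain of ducts, was lower at 182, 162 and 193 CPM, with all 3 libraries close together.

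Per length, which allows genes to be compared, the control KPC4 level fell from Krt8 at 1447 ± 121 CPM per kb (SD, n = 3) over Krt19 at 1152 ± 225, Krt18 at 967.5 ± 151, Krt7 at 43.8 ± 3.84 and Muc1 at 26.8 ± 7.97 to Cldn7 at 7.26 ± 2.65, Epcam at 4.36 ± 2.78, Cldn4 at 0.698 ± 0.511 and Grhl2 at 0.277 ± 0.118. The libraries' ranges overlapped for the neighbours Krt19 and Krt18, Cldn7 and Epcam, and Cldn4 and Grhl2, so those orders are not resolved. With the union of all exons as the length, a choice made after seeing the data, Muc1 came before Krt7. The step from Krt18 to Krt7 was the widest, at 22.1-fold.

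The make-up of the 4 keratins in KPC4 was similar in both groups. Of their summed CPM per kb, Krt8 gave 40.4% ± 4.81, Krt19 31.7% ± 3.23, Krt18 26.7% ± 1.63 and Krt7 1.21% ± 0.0358 in Control-PSC-SU (SD, n = 3). With Gem-PSC-SU the shares were 40.3% ± 2.72, 30.5% ± 0.133, 28.1% ± 2.91 and 1.06% ± 0.134. Type I exceeded type II in every KPC4 library, by 1.15 to 1.71 times. Together the 4 keratins took 0.551% to 0.678% of the scaled library in controls and 0.526% to 0.680% with Gem-PSC-SU.

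The surface and junction genes of KPC4 were less abundant and more variable. Epcam, the adhesion glycoprotein by which carcinoma cells are often sorted, was counted 522, 131 and 231 times in the 3 control libraries, or 15.0, 3.88 and 7.73 CPM. Only 37.7% of the listed genes were below its mean. Cldn7, a tight junction claudin, stood at 13.7, 7.05 and 8.30 CPM. Both genes were highest in library 1 and lowest in library 2. Cldn4, another claudin, had 43, 12 and 66 counts, and its library 1 was not the highest. Cdh1, the E-cadherin of adherens junctions, which is no member, stood far above all of these at 688, 452 and 600 CPM, and was chosen for mention after its values were seen.

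Muc1, the transmembrane mucin of the apical surface, was counted at 79.3, 44.1 and 56.7 CPM in control KPC4. Grhl2 was low there, with 70, 30 and 36 counts. Esrp1 was not listed, while its paralogue Esrp2, also an epithelial splicing factor, stood at 46.6, 41.1 and 43.6 CPM. Grhl2 and Cldn4 were thus the lowest listed members per length in KPC4.

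**Figure D1:**
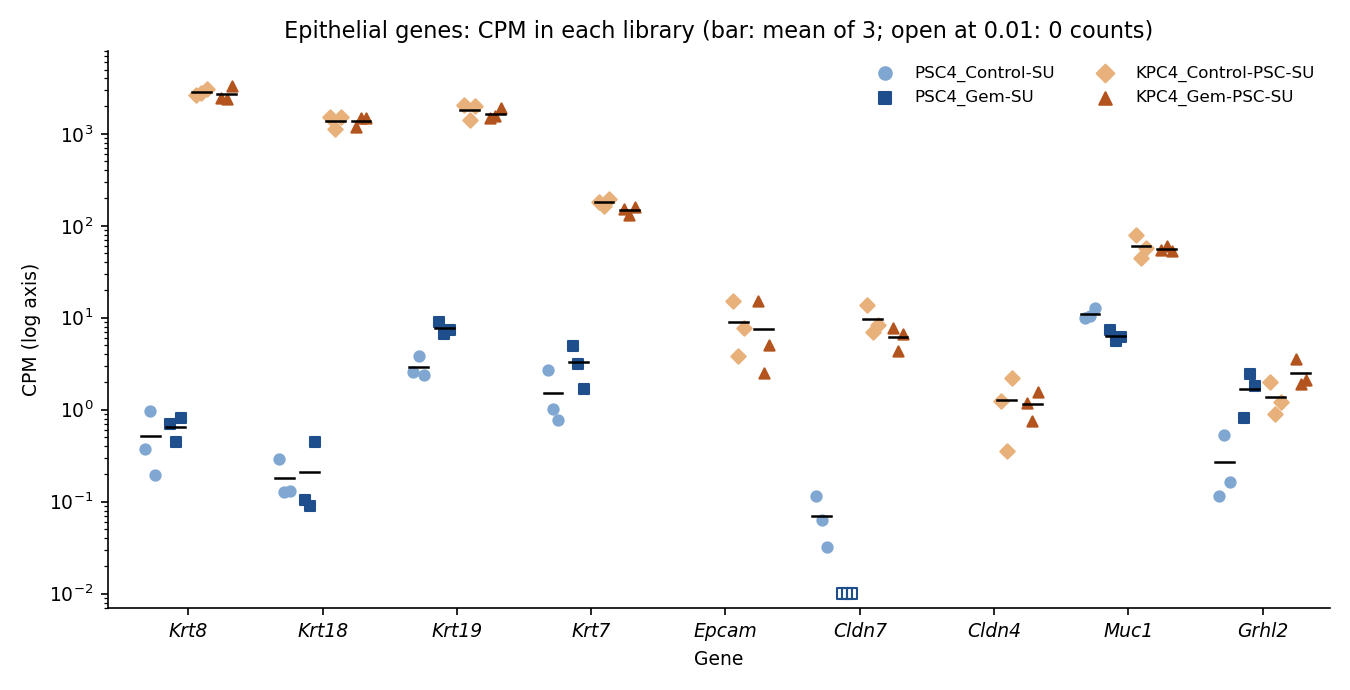
CPM of the 9 listed members in each of the 12 libraries on a log axis, with circles and squares for PSC4 and diamonds and triangles for KPC4, and a bar at the mean of each group. The KPC4 libraries lie above the PSC4 ones for every gene listed in both lines except Grhl2, whose PSC4 Gem-SU libraries reach the KPC4 range.

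All 7 members listed in both lines were higher in control KPC4 than in control PSC4. The fit over genes in both tables called 7 of 7 higher in KPC4, against a background of 24.7% of 13083 genes called higher (edgeR quasi-likelihood test, Benjamini-Hochberg adjusted p under 0.05). The median difference of the 7 was 7.05 on the log2 scale, and that of all genes 0.0015. The groups did not overlap for any of the 7, as for 58.6% of all genes. The direction belongs to how the genes were chosen, as markers of epithelium. Some of the 7 also passed the low-count filter only with KPC4 libraries, as given below. The lines were also kept in different supernatants, so line and medium cannot be told apart, and in bulk RNA fewer cells of a type and less RNA per cell cannot be told apart either.

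The size of the gap differed widely between members. Krt18 differed by 12.90 on the log2 scale (SE 0.34, adjusted p = 1.19e-08, edgeR), with 10, 4 and 4 counts in the PSC4 controls. Krt8 differed by 12.46 (SE 0.48), with 13, 31 and 6 PSC4 counts. Krt19 differed by 9.32 (SE 0.31), Cldn7 by 7.05 (SE 0.52) and Krt7 by 6.93 (SE 0.44). For these keratins and Cldn7 the PSC4 level was under 1% of the KPC4 mean. Krt18 and Cldn7 reached the filter's count in no PSC4 control library and entered the fit through KPC4 alone, so their place among the called members was fixed by the filter. Krt8 reached it in 2 PSC4 control libraries and Grhl2 in 1, where 3 libraries were needed. Both thus also passed only with the KPC4 libraries, in which they were high. When at least 10 counts were asked of every library, 3 members were left and all were called.

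Muc1 and Grhl2 had the narrowest gaps. Muc1 was 2.51 higher in KPC4 on the log2 scale (SE 0.24), with PSC4 controls at 9.85, 10.4 and 12.6 CPM, or 18.2% ± 2.44 of the KPC4 mean (SD, n = 3). Grhl2 was 2.38 higher (SE 0.70, adjusted p = 0.0176, edgeR), on 4, 17 and 5 PSC4 counts. The Grhl2 call was lost without PSC4 Control-SU replicate 1 (adjusted p = 0.0682), PSC4 Control-SU replicate 3 (adjusted p = 0.0786) or KPC4 Control-PSC-SU replicate 1 (adjusted p = 0.0817). Muc1 was the most abundant member per length in control PSC4, at 4.88 ± 0.654 CPM per kb, before Krt19 at 1.87 ± 0.517 (SD, n = 3), with ranges that did not overlap.

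Most tested companion genes of the epithelial programme were also higher in KPC4, where 24.7% of all genes were called higher and 23.7% lower. Of 12 tested adherens junction and desmosome genes 10 were higher in KPC4, among them Perp (log2 difference 9.57, SE 0.43) and the desmosomal cadherin Dsg2 (10.24, SE 0.64). Of 13 tight junction genes 10 were higher, led by the claudin Cldn2 (10.75, SE 0.31) and the tricellular junction gene Lsr (10.53, SE 0.41), and 1, Cldn1, was lower (-3.06, SE 1.01), a call kept in 1 of the 6 fits that left out a library. Of 14 fate and splicing regulators 11 were higher, with Esrp2 at 5.15 (SE 0.21) and the endodermal factor Foxa1 at 5.68 (SE 0.26), while Trp63, a basal epithelial factor, was lower at -6.92 (SE 0.78), as was Prdm1 (-1.75, SE 0.46), which lost its call without PSC4 Control-SU replicate 1 (adjusted p = 0.0651). Of 10 mucin and apical genes 9 were higher, led by the protease inhibitor Spint2 (12.82, SE 0.42) and by Tspan8. Tspan8 had no count in any PSC4 control library and 12194 to 12577 counts in KPC4. Some of the genes called, such as Tspan8 and the plakin gene Evpl, reached the filter's count in no PSC4 control library. Their direction was fixed by the filter. Dsg2, Cldn2 and Lsr did not pass the filter in the fit of PSC4 alone. They entered this comparison only with KPC4 libraries, and their log2 values rest on low PSC4 counts. The numbers of higher genes per list are thus in part a product of the filter. St14, a membrane protease gene and another of the 9 (log2 1.38, adjusted p = 0.0481), kept its call in 2 of the 6 fits that left out a library and lost it with the replicate block (adjusted p = 0.0662). Of 3 keratins outside the members, Krt13 was higher in KPC4 (1.59, SE 0.50, a call kept in 2 of 6 such fits) and Krt80 lower (-1.59, SE 0.31).

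The mesenchymal side of the comparison was uneven. Of 12 mesenchymal genes 7 were lower in KPC4, against 23.7% of all genes. Prrx1, a mesenchymal homeobox factor, differed by -4.16 (SE 0.19) and the matrix protein gene Sparc by -3.11 (SE 0.19). Vim, the mesenchymal intermediate filament, was higher in KPC4 (0.68, SE 0.19, adjusted p = 0.0133, edgeR), a call lost without KPC4 Control-PSC-SU replicate 3 (adjusted p = 0.0506). Among the genes of E-box-binding repressors, KPC4 controls held Zeb1 at 105, 89.0 and 86.0 CPM. That range overlapped the PSC4 controls, which stood at 93.1, 148 and 103 CPM. Zeb2 was lower in KPC4 at 20.2, 23.4 and 22.1 CPM against 135, 205 and 144 CPM in PSC4. The same KPC4 libraries thus held keratins near the top of the table, Vim above the stellate level, and Zeb1 in a range that overlapped the stellate one.

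In PSC4 exposed to Gem-SU the most abundant duct keratin of that line rose, the Grhl2 transcript rose from a few counts, and Muc1 fell. Of 5 members tested 2 were called higher and 1 lower, where 24.3% and 22.0% of 13347 genes were called in those directions and 46.3% in either (edgeR quasi-likelihood test). The median of these 5 was 1.11 on the log2 scale, and that of all genes -0.0032. A share of 3 in 5 is not far from that background. The groups did not overlap for 3 members either, as for 56.4% of all genes. Krt18 and Cldn7 did not pass the low-count filter and are not in the median of 1.11. Fitted without a filter, on low counts, they stood at 0.20 and -4.30 on the log2 scale.

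Krt19 in PSC4 went from 88, 123 and 74 counts to 349, 219 and 215, or from 2.55, 3.88 and 2.40 CPM to 9.06, 6.58 and 7.28 CPM. Every Gem-SU library was above every Control-SU library. The change was 2.59-fold (log2 1.38, SE 0.28, adjusted p = 0.0044, edgeR), and it stayed past the threshold in all 6 fits that left out a library. The level with Gem-SU was still 0.421% ± 0.0706 of the control KPC4 mean (SD, n = 3).

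Grhl2 in PSC4 went from 4, 17 and 5 counts to 31, 82 and 53. The groups did not overlap, and library 2 was the highest in both. The change was 6.15-fold (log2 2.62, SE 0.70, adjusted p = 0.0154, edgeR). The gene reached the filter's level in 1 control library and in all 3 Gem-SU libraries, so it was tested because of the group in which it was high. The call was lost without PSC4 Control-SU replicate 3 (adjusted p = 0.0652) or without PSC4 Gem-SU replicate 2 (adjusted p = 0.0758). With Gem-SU its level, 1.69 ± 0.834 CPM, lay in the range of KPC4 (SD, n = 3).

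Muc1 in PSC4 moved the other way, from 9.85, 10.4 and 12.6 CPM to 7.30, 5.53 and 6.16 CPM. Every Gem-SU library was below every control library. The change was 1.73-fold lower (log2 -0.79, SE 0.21, adjusted p = 0.0164, edgeR). It missed the threshold without PSC4 Control-SU replicate 3 (adjusted p = 0.0574) or PSC4 Gem-SU replicate 2 (adjusted p = 0.0778). Krt19 and Muc1 exchanged their places per length: with Gem-SU, Krt19 stood at 4.85 ± 0.814 and Muc1 at 2.82 ± 0.400 CPM per kb, and the ranges did not overlap.

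The other members of PSC4 did not pass the test. Krt7 had 94, 32 and 24 counts with Control-SU and 191, 104 and 50 with Gem-SU, and the groups overlapped through control library 1 (log2 1.11, SE 0.56, adjusted p = 0.138, edgeR); without that library it was called (log2 1.86, adjusted p = 0.0295). Krt8 had 13, 31 and 6 counts against 27, 15 and 24 (log2 0.34, SE 0.65, adjusted p = 0.697). Krt18 had 10, 4 and 4 counts against 4, 3 and 13, and Cldn7 had 4, 2 and 1 against none in any Gem-SU library, which at this floor allows up to 3 counts each. Krt8 and Krt18, which with Krt19 make up most of the 4 keratins in KPC4, thus stayed at 3 to 31 counts per library in PSC4 under either supernatant. Krt19 gave 71.7% ± 10.1 of the 4 keratins' summed CPM per kb in PSC4 controls and 79.3% ± 1.32 with Gem-SU.

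**Figure D2:**
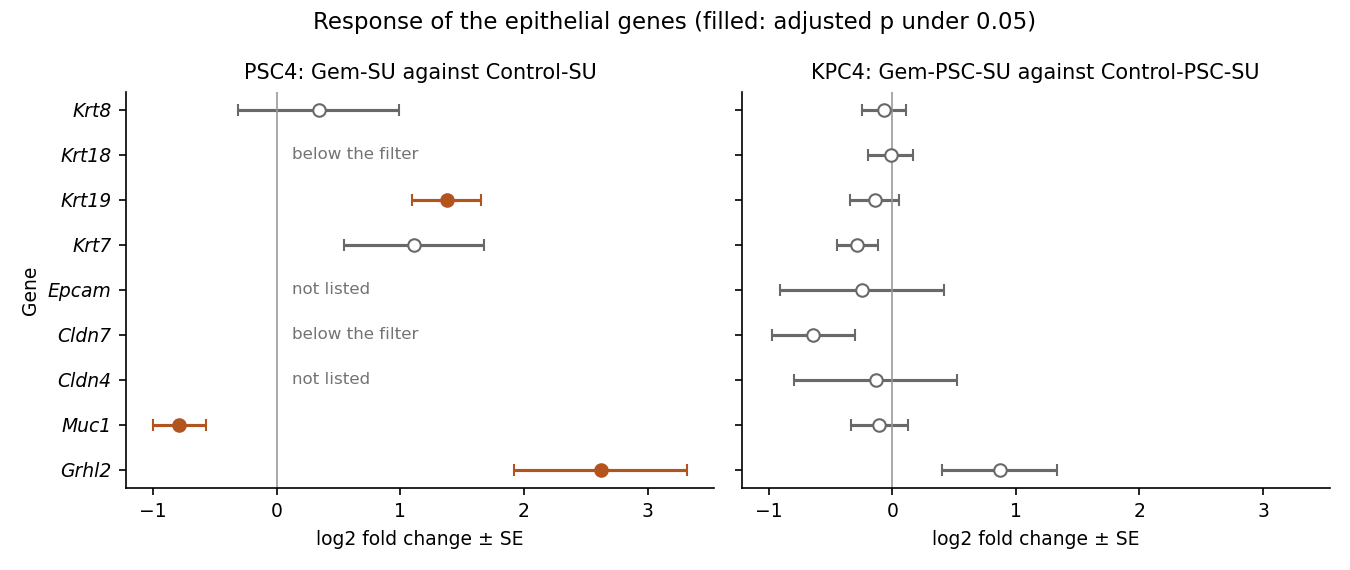
Log2 fold change with its standard error for each member in PSC4 (left) and KPC4 (right), filled where the adjusted p was under 0.05. Krt19 and Grhl2 lie to the right and Muc1 to the left of 0 in PSC4, and no KPC4 member is filled.

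Other epithelial genes were measured beside these members in PSC4. Of 14 further keratins 6 were tested and 5 were higher with Gem-SU, where 24.3% of all genes were. The median over the 6 was 3.68 on the log2 scale. It takes in Krt15, Krt16 and Krt17, which had few or no control counts and fitted values that depend on the prior count. The median is thus no measured size. Krt15, a type I keratin of basal and progenitor cells, had 2, 0 and 0 counts against 46, 39 and 18, which made it at least 10.7-fold higher. Krt13, a keratin of stratified mucosa, rose 2.25 on the log2 scale (SE 0.43). Krt17 and Krt16, stress keratins of stratified epithelium named after their values were seen, had 0, 0 and 0 counts against 34, 23 and 10, and 4, 0 and 0 against 80, 60 and 20. In each Gem-SU library Krt19 had more counts than any of Krt13, Krt15, Krt16 and Krt17. As 8 of the 14 did not pass the filter or were not listed, and several that did passed through the Gem-SU group, the count of 5 is no share of the family.

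Some junction genes of PSC4 were higher with Gem-SU, where 24.3% of all genes were. Of 10 adherens junction and desmosome genes tested 4 were higher and none lower. Pkp2, a desmosomal plaque protein, went from 206, 136 and 221 counts to 1123, 1334 and 1085 (log2 2.60, SE 0.24). Evpl, a plakin of the cornified envelope, went from 7, 0 and 3 to 282, 317 and 159. Evpl passed the low-count filter through the Gem-SU group, so it could be tested only as a higher gene. Of 10 tight junction genes 3 were higher and none lower, with F11r, the junctional adhesion molecule A, at 0.88 (SE 0.12), a share near that of all genes. The median of these 10 was -0.058 on the log2 scale and 4 were above 0. The claudin Cldn1, named after its values were seen, had 27, 56 and 21 counts against 13, 18 and 5 (log2 -1.61, SE 0.62, adjusted p = 0.0622, edgeR), and with the replicate block it was called lower (adjusted p = 0.0417), as was Cgnl1 (adjusted p = 0.0440). Of 5 mucin and apical genes none was called (edgeR), with 1 at an unadjusted p under 0.05, and Lgals3, a galectin, had the smallest p (log2 -0.91, SE 0.35, adjusted p = 0.0608). Lgals3 passed under DESeq2 (adjusted p = 0.0145). Muc1 was thus the one surface gene of the members and this list that was called in the main test.

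The fate regulators of PSC4 were split. Of 12 tested 5 were higher and 2 lower, where 24.3% and 22.0% of all genes were called in those directions. Grhl1 and Grhl3, like Grhl2, passed the low-count filter through the Gem-SU group, so that they could be tested only as higher genes and their direction is no support for a family pattern. Grhl1 went from 7, 0 and 10 counts to 264, 296 and 375 (log2 5.72, SE 0.69, adjusted p = 4.06e-04, edgeR), and Grhl3, named after its values were seen, from 0 in each control library to 55, 66 and 46, at least 17.8-fold higher. Klf5, a zinc-finger factor of gut and duct epithelium, rose from 568, 275 and 379 counts to 2019, 1765 and 1541 (log2 2.07, SE 0.23). Trp63 went from 166, 167 and 200 counts to 3, 1 and 3, at least 61.5-fold lower. Prdm1 was lower as well (log2 -1.45, SE 0.40, adjusted p = 0.0181), a call lost without PSC4 Control-SU replicate 1 (adjusted p = 0.0898), Gem-SU replicate 2 (adjusted p = 0.0703) or Gem-SU replicate 3 (adjusted p = 0.0557).

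**Figure D3:**
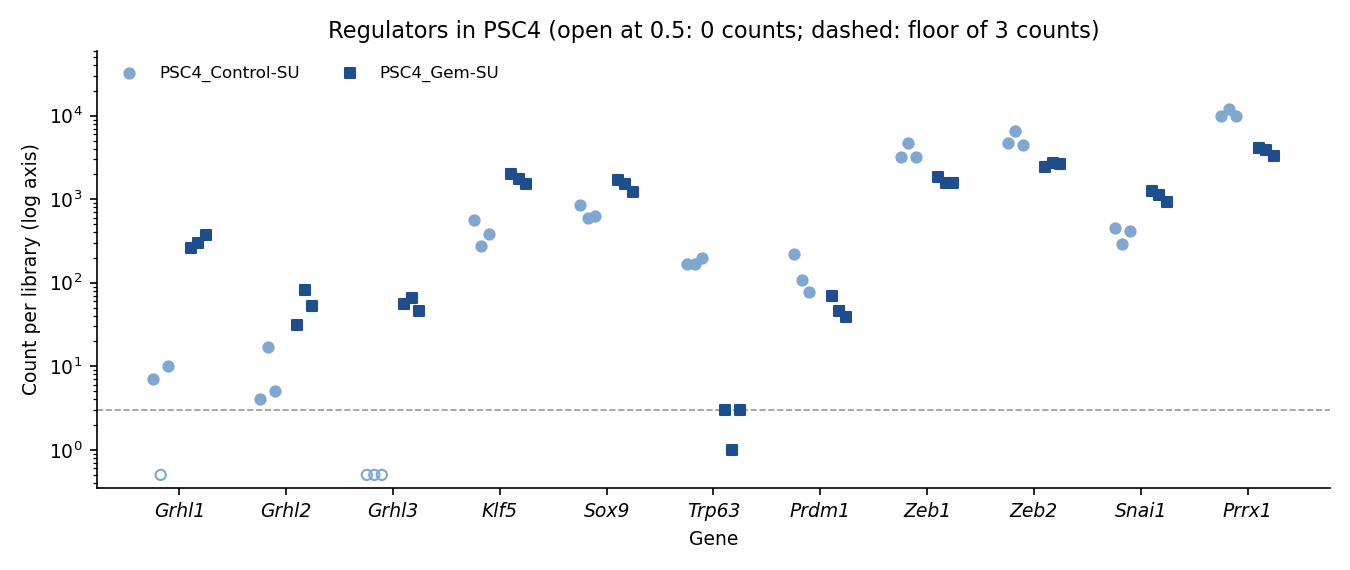
Counts per library of fate regulators and mesenchymal factors in PSC4 on a log axis, with circles for Control-SU, squares for Gem-SU, open symbols for 0 counts and a dashed line at the floor of 3 counts. Grhl1, Grhl2, Grhl3, Klf5, Sox9 and Snai1 lie higher with Gem-SU, and Trp63, Prdm1, Zeb1, Zeb2 and Prrx1 lower.

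Mesenchymal genes of PSC4 moved mostly the other way. Of 12 tested 7 were lower with Gem-SU and 1 higher, where 22.0% and 24.3% of all genes were called in those directions. Their median was -1.02 on the log2 scale. Prrx1 fell by 1.58 on the log2 scale (SE 0.16) and Vim fell by 1.49 (SE 0.23). Zeb1, named because Zeb proteins are known to recognise E-box letters such as those marked above, went from 93.1, 148 and 103 CPM to 48.4, 46.6 and 53.3 CPM (log2 -1.22, SE 0.19). Snai1, whose protein is known to recognise the same letters, was the 1 gene that rose, from 13.3, 9.22 and 13.5 CPM to 32.2, 34.0 and 31.7 CPM (log2 1.44, SE 0.20). The summed stellate markers were lower with Gem-SU in the same libraries, as given above, and their part in the members' values was not tested.

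In KPC4 exposed to Gem-PSC-SU no member was called. Of 9 tested, 0 passed in edgeR, where the background was also 0% of 13236 genes, and 0 of 9 had an unadjusted p under 0.05, against 17.0% of all genes. The median change of the 9 was -0.13 on the log2 scale, and that of all genes -0.02. With the replicate number as a block, which the values of this line bear out, 1171 genes (8.85%) were called, and DESeq2 called 823 (6.22%), in both cases with no member among them. Without KPC4 Control-PSC-SU replicate 2 edgeR called 174 genes, without Gem-PSC-SU replicate 1 it called 1129, and without Gem-PSC-SU replicate 2 it called 1, again with no member. Krt7 was the one member whose groups did not overlap, a state found for 22.8% of genes.

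The dominant keratins of KPC4 moved little. Krt8 stood at 2457, 2389 and 3274 CPM with Gem-PSC-SU (log2 -0.07, SE 0.18), Krt18 at 1182, 1480 and 1470 CPM (log2 -0.01, SE 0.18) and Krt19 at 1468, 1566 and 1897 CPM (log2 -0.14, SE 0.20). For each of the 3 the change was smaller than its standard error. Krt7 went from 182, 162 and 193 CPM to 151, 130 and 161 CPM, every library below the lowest control (log2 -0.28, SE 0.17, adjusted p = 0.412, edgeR), and the lower value held for each replicate number. Muc1 stood at 54.8, 60.0 and 52.9 CPM, within the range of its controls (log2 -0.10, SE 0.23).

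Epcam, Cldn7 and Grhl2 differed in KPC4 by replicate number, with library 1 the highest in both groups. Epcam had 422, 80 and 133 counts with Gem-PSC-SU, or 15.0, 2.48 and 5.01 CPM, in the same order of libraries as in the controls. The highest library exceeded the lowest 3.87 times in the controls, while the fitted change between groups was -0.25 on the log2 scale (SE 0.66, adjusted p = 0.875, edgeR). With the replicate number as a block the change was -0.41 and its SE fell to 0.23 (adjusted p = 0.260). Cldn7 stood at 7.65, 4.34 and 6.67 CPM with Gem-PSC-SU, lower than its control at each of the 3 numbers (log2 -0.64, SE 0.34, adjusted p = 0.365; with the block, adjusted p = 0.103). Grhl2 had 99, 61 and 56 counts, higher than its control at each of the 3 numbers (log2 0.87, SE 0.47, adjusted p = 0.378; with the block, adjusted p = 0.148). Cldn4 had 33, 24 and 41 counts, higher at 1 number and lower at 2.

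**Figure D4:**
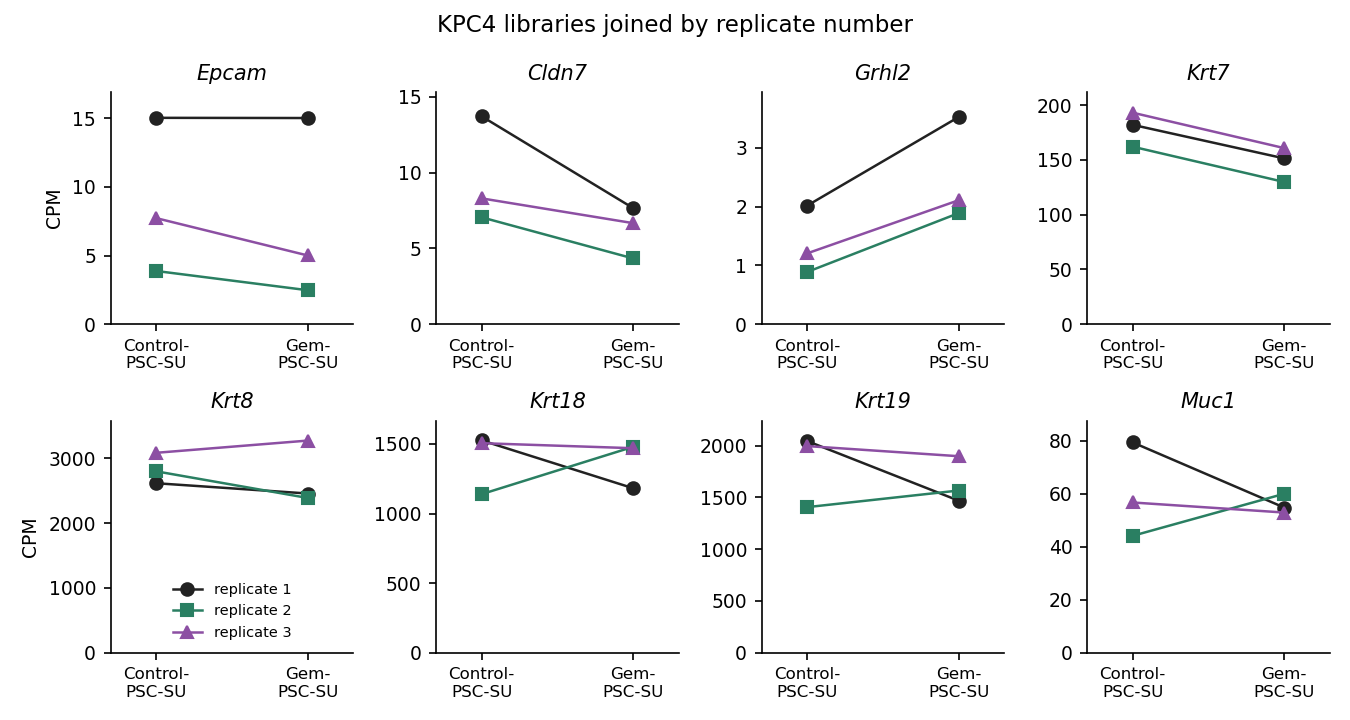
CPM of 8 members in KPC4, with the Control-PSC-SU and Gem-PSC-SU library of the same replicate number joined by a line. The 3 lines slope down for Cldn7 and Krt7 and up for Grhl2, cross for Krt18, Krt19 and Muc1, and for Epcam replicate 1 stands at 15.0 CPM in both groups, above the others.

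The wider epithelial programme of KPC4 gave no call in any of the 6 companion lists in edgeR. By smallest p the leading genes were Krt16, Dsc2, Cldn6, Elf3, Cd24a and Zeb2. With the replicate block, which called 8.85% of all genes in either direction, 4 of 9 other keratins were higher. Among them was Krt16, with 0 counts in each control library and 11, 22 and 26 with Gem-PSC-SU (at least 7.44-fold higher, adjusted p = 0.0335 with the block). Krt16 passed the filter through the Gem-PSC-SU group. Elf3, an epithelial Ets factor, went from 24.7, 13.4 and 23.3 CPM to 39.5, 53.2 and 53.4 CPM (adjusted p = 0.0252 with the block), and the claudin Cldn6 from 73.0, 95.8 and 104 CPM to 51.2, 39.1 and 54.3 CPM (adjusted p = 0.0228 with the block). Of 15 adherens junction and desmosome genes 2 were higher with the block, the desmosomal cadherins Dsg2 (adjusted p = 0.0173 with the block) and Dsc2. Dsc2 had 145, 97 and 59 counts against 289, 155 and 117 (adjusted p = 0.0428 with the block). Of 18 tight junction genes 1 was lower with the block, of 18 fate regulators 3 were higher (Elf3, Klf5 and Grhl1, the last from 4, 18 and 3 counts to 18, 142 and 54), and no mucin or mesenchymal gene was called.

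**Figure D5:**
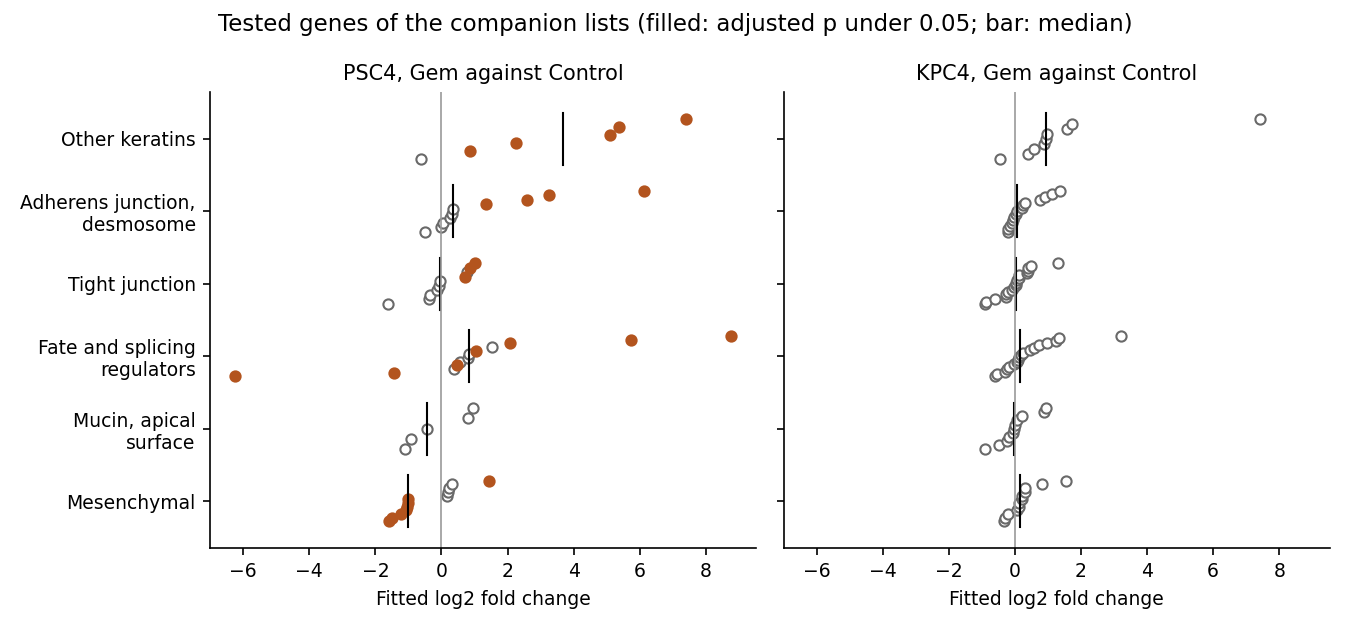
Fitted log2 fold change of every tested gene of 6 companion lists in PSC4 (left) and KPC4 (right), filled where the adjusted p was under 0.05, with a bar at the list's median. In PSC4 the filled keratin and junction genes lie to the right of 0, beside open ones on both sides, and 7 of 8 filled mesenchymal genes to the left, and in KPC4 none is filled.

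The response differed between the lines for Krt19. In the fit over all 12 libraries the PSC4 response exceeded the KPC4 response by 1.47 on the log2 scale (SE 0.32, adjusted p = 0.0127, edgeR interaction term), and the call held in all 12 fits that left out a library. It was the 1 member called among 7 tested, where 9.85% of 13632 genes were called, 4.75% with a positive difference and 5.1% with a negative one. For Grhl2 the difference was 1.70 (SE 0.86, adjusted p = 0.237), with a higher value for Gem in both lines. For Muc1 it was -0.73 (SE 0.30, adjusted p = 0.146), and for Krt7 1.34 (SE 0.56, adjusted p = 0.147). With the replicate number within each line as a block, 21.9% of genes and 3 members were called: Krt19, Krt7 (1.40, adjusted p = 0.0019) and Cldn7 (adjusted p = 0.0469), whose fitted value rests on 0 counts in PSC4 Gem-SU. Krt7 was also called without PSC4 Control-SU replicate 1 (2.10, adjusted p = 0.0205).

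The authors' deposited table of comparisons gave nearly the same fold changes for most members. For PSC4 it held Krt19 at log2 1.36 (adjusted p = 7.64e-05), Grhl2 at 2.75 (adjusted p = 5.08e-04) and Muc1 at -0.86 (adjusted p = 0.0088). It differed in sign for Krt7 in PSC4, at -0.25 in the authors' deposited table against 1.11 from the counts, and for Muc1 in KPC4, at 0.49 in the authors' deposited table against -0.10. Opposite signs were found for 642 of 12340 genes matched by symbol in PSC4 and for 1016 of 12209 in KPC4. Neither Krt7 in PSC4 nor Muc1 in KPC4 passed the threshold in either source.

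In KPC4, the genes whose profile over the 6 libraries was most like the members' mean profile were Tmem167b (r = 0.995), Misp (r = 0.988), an actin-bundling protein gene, and Fbxo46 (r = 0.986). These are the highest of 11535 genes, of which 162 exceeded 0.9, over libraries that share their line, and are given as a description. Of the members themselves Krt19 followed the mean most closely (r = 0.910) and Grhl2 least (r = 0.277). Each member is part of that mean, so these values are not comparable with those of genes outside it.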

How the data were processed

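Total RNA of 12 cultures was sequenced, 3 per group, and samples were grouped by their titles. For each line the authors deposited raw gene counts by library, with identifiers and without symbols. The submitters' processing notes name Trim Galore 0.6.10, cutadapt 5.2, Salmon, DESeq2, R 4.5.1 and the build GRCm39, with no role given; Salmon estimates counts by transcript, so genes with near-identical copies or overlapping neighbours are uncertain. The authors' deposited tables of log2 fold changes, p-values and adjusted p-values per symbol were used only as the authors' values. Symbols came from GENCODE M21, which matched 99.7% of identifiers in each table. No coordinates are given for the counted genes, since that annotation is of GRCm38; promoter windows are RefSeq's (GRCm38.p6).

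Each line was fitted by itself with edgeR 4.0.16 (R 4.3.3): filterByExpr with a minimum count of 10, TMM, robust quasi-likelihood test, and Benjamini-Hochberg adjustment at 0.05 over all genes tested. Lines were compared over the 6 control libraries, and responses by the interaction over 12 libraries, on the 14360 genes in both tables. CPM are counts over library totals scaled by TMM factors within each line, and CPM per kb divide by the longest principal transcript. The scripts were tested on simulated data. Alternatives were DESeq2 1.42.0 and its size factors, other filters, the replicate block, robust estimation off, one fit of all libraries, and leaving out each library. DESeq2 with the block, and the exon-union length, were chosen after seeing the data. At these depths the floor, 3 counts per library, covers counting error only. Standard errors were derived from the quasi-likelihood fit over the replicates and so include their spread.

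The members, the companion lists and the tests were chosen with earlier results of these data known. Named are all members, the 2 list genes per direction with the smallest p among those called, or where none was called the 1 with the smallest p, and the 3 genes with at least 50 mean counts most like the members. Same-numbered KPC4 libraries deviated together from their group means (correlations of 0.351, 0.436 and 0.211), so the numbers were taken to pair them on the strength of the values alone. The labels call the replicates biological. Some results of the named-gene rule are not reported here.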

Additional observations from a re-analysis of the deposited data

Results flagged for a closer look

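The responses of the lines to Gem differed, by the interaction term in edgeR (Benjamini-Hochberg adjusted p under 0.05), for 1343 genes, and each value here is the PSC4 response minus the KPC4 response on the log2 scale. Of the members this held for Krt19 (1.47, SE 0.32), which was higher with Gem-SU in 3 of 3 PSC4 libraries than in any control library, and lower at 2 of 3 replicate numbers in KPC4. Among the desmosome genes it held for Pkp2 (2.49, SE 0.30) and Evpl (5.82, SE 0.81), both higher in PSC4 with Gem-SU, while Pkp2 in KPC4 stood at 61.7, 54.3 and 51.0 CPM with Gem-PSC-SU against 56.8, 46.6 and 56.9 CPM (log2 0.06, SE 0.18). Among the fate regulators it held for Klf5 (1.43, SE 0.29) and Sox9 (0.92, SE 0.24), higher in PSC4, and for Trp63 (-7.61, SE 1.35) and Prdm1 (-2.82, SE 0.67), lower there. Sox9 kept its call in 4 of the 12 fits that left out a library and Prdm1 in 9. The Trp63 value rests on 0 to 6 counts in KPC4 and depends on the prior count. Cdcp1, an epithelial surface protein gene, differed by 6.44 (SE 1.21), on no count in the PSC4 controls against 8, 19 and 8 counts with Gem-SU, and this value too depends on the prior count and is no measured size. The mesenchymal genes Prrx1 (-1.82, SE 0.28) and Zeb1 (-1.39, SE 0.26) were lower with Gem-SU in PSC4, while Zeb1 in KPC4 stood at 104, 114 and 89.0 CPM with Gem-PSC-SU.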

How the results depend on the processing

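Over the planned and added alternatives, 357 of the members' values kept direction and side of the threshold, 5 passed it newly, 7 no longer passed, and 20 changed sign, none of the last having been called. The number of PSC4 genes called, 6177, ranged from 4061 (without Gem-SU replicate 2) to 6826 when a library was left out, and the 3 PSC4 members called became 1 to 4, with 1 left without Control-SU replicate 3 or Gem-SU replicate 2. Cldn7, which one fit over all 12 libraries tested in PSC4, made 4 there. In KPC4 the count of genes went from 0 to 823 with DESeq2, 1171 with the replicate block, 610 in one fit over all 12 libraries, 2184 by DESeq2 with the replicate block, and 0 to 1129 when a library was left out, with 0 members each time. The 7 members that differed between lines became 3 at 10 counts or more in every library, since 4 were then not tested. The 1343 genes of the interaction became 2151 with DESeq2, 2988 with the replicate block and 610 to 1993 without a library (610 without PSC4 Gem-SU replicate 2, and 779 to 828 without PSC4 Control-SU replicate 3, PSC4 Gem-SU replicate 3, KPC4 Control-PSC-SU replicate 3 or KPC4 Gem-PSC-SU replicate 3). Its 1 member became 3 with the replicate block and 1 to 2 without a library.

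Changes near 0 turned. In KPC4, Krt18 (-0.01) came to 0.0020 with DESeq2's size factors, 0.0020 with DESeq2 and 0.0065 by DESeq2 with the replicate block, and Cldn4 (-0.13) to 0.0988 with the replicate block and 0.128 by DESeq2 with it. Leaving out a library gave, in KPC4, -1.25 to 0.37 for Epcam, -0.23 to 0.016 for Krt8, -0.13 to 0.083 for Krt18, -0.56 to 0.53 for Cldn4 and -0.27 to 0.15 for Muc1; in PSC4, -0.085 to 1.14 for Krt8; and for the interaction -0.0051 to 1.19 for Krt8 and -0.95 to 0.60 for Krt18. The cause was not tested. In PSC4 same-numbered libraries correlated at 0.428, -0.0548 and 0.102. For numbers 2 and 3 the highest correlation with a library of another number was larger, at 0.253. The values thus did not settle whether the numbers pair the PSC4 libraries. With the replicate block 7266 genes and 4 members were called in PSC4, Krt7 (1.19, adjusted p = 0.0166, edgeR) being the added one. For the interaction the block, which uses the numbers of both lines, added Krt7 (adjusted p = 0.0019, edgeR) and Cldn7 (adjusted p = 0.0469). It changed no other call of a member. Members with under 100 counts in every library of a line (Krt8, Krt18, Cldn7 and Grhl2 in PSC4, Cldn4 and Grhl2 in KPC4) are limited by depth.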
